A study of Chlorocebus sabaeus with 45 samples.

Results

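The genes described here are ligands and receptors of the tumor necrosis factor (TNF) superfamily, measured in the whole blood of vervet monkeys (Chlorocebus sabaeus) during a psychosocial stress experiment. They were chosen by symbol from a list of 10 genes, and 8 of the 10 had a row among the 33994 gene rows of the expression tables: the ligands TNFSF10, TNFSF14, TNFSF13B and CD40LG and the receptors TNFRSF10A, TNFRSF1A, FAS and TNFRSF1B. The other 2 listed genes, TNF and LTB, were not analysed here. The study took 15 wild-caught juvenile males through capture, relocation and single caging, and each animal gave 1 RNA-seq library on day 0, day 3 and day 14, which makes 45 libraries. On day 0 blood was drawn in the field just after capture under ketamine and xylazine, and on days 3 and 14 in the facility under dexmedetomidine and midazolam, with no agent, allele or treatment set apart for a control group. Place, housing and sedation therefore cannot be told apart from the time between day 0 and the later days, and no animal stayed in the wild as a control. The comparisons ask which of these genes differed after short exposure (day 3) and longer exposure (day 14), and between both quarantine days.

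Ligands of this superfamily are mostly membrane proteins made by leukocytes, and many can be shed as soluble trimers. Their receptors fall into those with a cytoplasmic death domain, which can recruit FADD and caspase-8 and start apoptosis, those without one, which recruit TRAF adaptors and activate NF-kB and MAP kinases, and decoys that bind ligand without passing on a full signal. In blood the family is known for the killing of target cells by NK and T cells, for T cell help to B cells, for B cell survival and for the priming of neutrophils and monocytes.

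Levels are given as FPKM, fragments normalised to gene length and to the library's total, after between-library scaling with trimmed mean of M values (TMM) factors. Differences are log2 fold changes from limma with their standard error (SE), and a gene was called where the p-value adjusted by Benjamini-Hochberg over all 18753 tested genes was under 0.05. All 8 genes passed the filter on low values, with between 96 and 14921 fragments per library behind their values. On day 14 vs. day 0, 3 of the 8 were called: TNFSF10 was up-regulated, and TNFRSF1A and TNFRSF10A were down-regulated. Of all tested genes 36.1% were called in that comparison, 16.8% up and 19.3% down, so that the share among the 8 genes was near the background. On day 3 vs. day 0 TNFRSF10A alone was called, down-regulated, beside 12.1% of all tested genes (5.84% up, 6.22% down). Between both quarantine days (day 14 vs. day 3) limma called 0 of the 8, with 1 (TNFRSF10A) at an unadjusted p under 0.05, beside 14.4% of all tested genes (7.1% up, 7.26% down). Taking the comparisons in the order day 3 vs. day 0, day 14 vs. day 0, day 14 vs. day 3, the median log2 fold change of the 8 genes was −0.26, −0.26 and −0.04, and over all tested genes it was 0.01, −0.05 and −0.05.

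**Figure D1:**
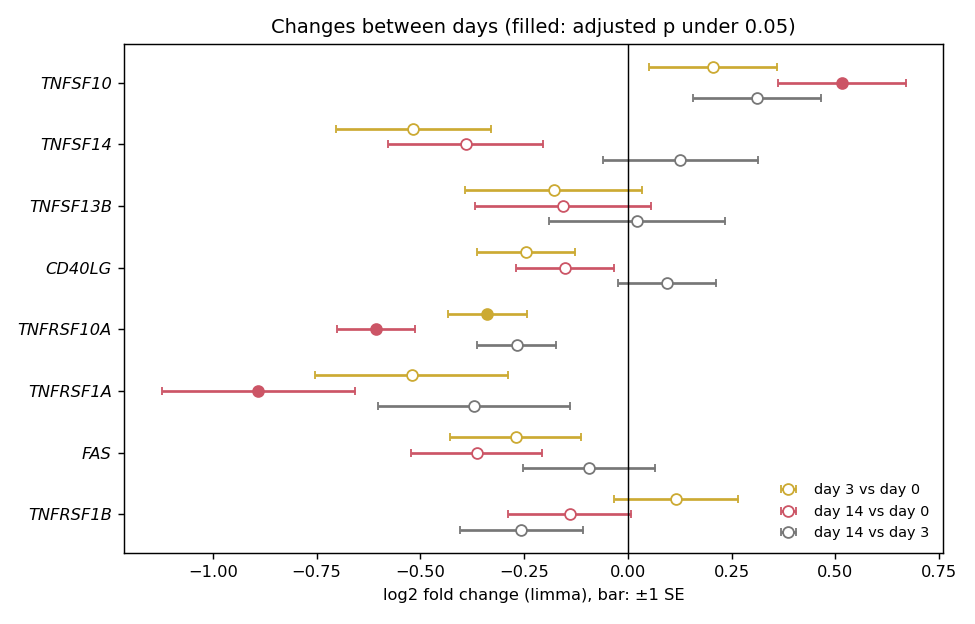
Log2 fold changes (x axis) of the 8 genes (y axis) in the 3 comparisons, fitted with limma over 15 animals per day. Points are estimates, bars are ±1 SE and filled points have an adjusted p under 0.05: TNFRSF10A on both later days vs. day 0, and TNFRSF1A and TNFSF10 on day 14 vs. day 0.

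The same animals were sampled on all days, and with the animal as a block in the fit the calls in the same order were 3 (TNFRSF10A, TNFRSF1A and TNFSF14, all down), 4 (FAS, down, besides those called without it) and 1 (TNFRSF10A, down). The block also raised the share of all tested genes called, to 19.0%, 44.1% and 25.4%. A two-sided exact sign-flip test of the within-animal differences, adjusted over all tested genes, called 1, 4 and 1 of the 8, beside 17.5%, 39.7% and 24.9% of all tested genes. The scaling between libraries set the balance of directions on day 14. On FPKM as deposited, without TMM, the median of all tested genes was −0.03, −0.36 and −0.35. Without that scaling 0, 7 and 4 of the 8 genes were called, each one down, beside 8.51%, 49.5% and 38.4% of all tested genes, and on day 14 vs. day 0 7.79% of all genes were called up and 41.8% down. Changes on day 14 are therefore relative to the typical gene.

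Libraries held between 13216280 and 31469337 fragments on genes, with a median of 22963984 in the day 0 libraries, 22754349 in those of day 3 and 22758495 in those of day 14. Defining markers of every blood cell type listed were present, with none at a median of 0 on any day. Marker levels moved with the day: of 14 neutrophil markers measured, 9 were called down on day 3 and 14 on day 14 vs. day 0, of 8 NK cell markers 3 and 6 were called up, and of 9 erythroid markers 5 and 9 were called up. Of 9 platelet markers, 9 were called up on day 3 and 3 on day 14 vs. day 0, and from day 3 to day 14 5 were called down. Most of these counts depended on the test: of the neutrophil markers, the exact sign-flip test over animals called 4 and 13, and limma adjusted for RNA integrity 3 and 7. For NK cell markers the same tests called 4 and 7, and 1 and 5, for erythroid markers 7 and 9, and 4 and 9, and for platelet markers 9 and 1, and 9 and 0. In whole blood, fewer cells of a type and less RNA per cell cannot be told apart.

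TNFSF10 encodes TRAIL, a death ligand carried by NK cells, T cells and monocytes. Its scaled FPKM had a lowest, median and highest value of 4.17, 7.07 and 13.03 on day 0, 4.43, 8.52 and 13.1 on day 3, and 5.97, 10.3 and 15.2 on day 14. The days overlapped, but 5 day 0 libraries lay below every day 14 library and 3 day 14 libraries lay above every day 0 library. By day 14 the level was 1.43-fold that of day 0, a log2 fold change of 0.52 ± 0.15 (SE, adjusted p = 0.00755, limma), and 13 of 15 animals were higher. Animals 2 and 4 were the exceptions, going from 13.03 to 9.103 and from 7.90 to 6.51 scaled FPKM. The log2 difference was 0.20 ± 0.15 on day 3 vs. day 0 (adjusted p = 0.433, 9 of 15 animals higher) and 0.31 ± 0.15 on day 14 vs. day 3 (adjusted p = 0.159, 12 of 15 animals higher), neither past the threshold. The call on day 14 depended on the processing: on FPKM as deposited the log2 difference was 0.13 (adjusted p = 0.583), which is 0.49 above the median gene on that scale, and after adjustment for RNA integrity it was 0.43 (adjusted p = 0.0861). The RNA integrity numbers listed by the study were higher on average at each later day. NK cell markers stood beside this change: their summed scaled FPKM ranged from 111 to 646 on day 0, from 208 to 815 on day 3 and from 305 to 1457 on day 14. Their part in the result was not tested.

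TNFSF14 encodes LIGHT, a ligand of TNFRSF14 and of the lymphotoxin beta receptor that costimulates T cells. The scaled FPKM of this ligand had a lowest, median and highest value of 4.51, 11.2 and 21.8 on day 0, 4.75, 7.502 and 10.6 on day 3, and 4.17, 8.599 and 10.7 on day 14. The day 0 values spread widely, with 9 of 15 libraries above every library of day 3 and the same number above every library of day 14, while the remaining 6 lay among or below them. The log2 difference was −0.52 ± 0.19 on day 3 vs. day 0 (adjusted p = 0.0612, 10 of 15 animals lower), which missed the threshold, and the same difference passed it with the animal as a block (adjusted p = 0.0430). It also passed in limma without animal 3 (adjusted p = 0.0396), animal 5 (0.0301), animal 6 (0.0368) or animal 12 (0.0447), whereas without animal 10 it was −0.41 (adjusted p = 0.143). The difference for day 14 vs. day 0 was −0.39 ± 0.19 (adjusted p = 0.0977, 10 of 15 animals lower), and it was −0.47 without animal 5 (adjusted p = 0.0433) and −0.26 without animal 10 (adjusted p = 0.270). That for day 14 vs. day 3 was 0.13 ± 0.19 (adjusted p = 0.684). The within-animal change from day 0 to day 14 ran from −2.23 in animal 10 to 0.75 in animal 5, so that the animals did not move together. Of the receptors of TNFSF14, TNFRSF14 had mean scaled FPKM of 38.8 ± 6.06, 39.5 ± 6.11 and 42.5 ± 4.33 (SD, n = 15 each) in day order and was not called in any comparison. LTBR, the lymphotoxin beta receptor, had 6.53 ± 3.34, 6.37 ± 2.49 and 4.47 ± 1.39 and was not called by limma. Its log2 difference was −0.44 ± 0.19 (SE) on day 14 vs. day 0 (adjusted p = 0.0746). On day 14 vs. day 3 it was −0.47 ± 0.19 (adjusted p = 0.0880, 13 of 15 animals lower). Both passed with the animal as a block (adjusted p = 0.0233 and 0.0265), and the latter also in the sign-flip test (0.0238).

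TNFSF13B encodes BAFF, a survival factor for B cells that is released mainly by myeloid cells. Its scaled FPKM had a lowest, median and highest value of 10.7, 21.4 and 101 on day 0, 10.9, 20.7 and 37.1 on day 3, and 12.1, 19.3 and 39.4 on day 14. The value of 101 came from animal 11, and the next highest on day 0 was 44.7 in animal 2. The log2 difference was −0.18 ± 0.21 on day 3 vs. day 0 (adjusted p = 0.653), −0.16 ± 0.21 on day 14 vs. day 0 (adjusted p = 0.598) and 0.02 ± 0.21 on day 14 vs. day 3 (adjusted p = 0.956), and without animal 11 the differences from day 0 were −0.055 on day 3 (adjusted p = 0.904) and 0.02 on day 14 (adjusted p = 0.957). The animals were divided, with 7 higher and 8 lower on day 14 than on day 0. In animal 11 the day 0 library also had the highest FAS value and the highest sum of monocyte markers (7856 scaled FPKM, where the median of day 0 was 1596).

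CD40LG, the CD40 ligand of activated helper T cells, had scaled FPKM with a lowest, median and highest value of 7.82, 14.3 and 19.7 on day 0, 8.87, 11.7 and 15.5 on day 3, and 7.45, 12.3 and 17.9 on day 14. The days overlapped through most of their range, although 5 day 0 libraries were above every day 3 library. The log2 difference was −0.25 ± 0.12 on day 3 vs. day 0 (adjusted p = 0.175), −0.15 ± 0.12 on day 14 vs. day 0 (adjusted p = 0.329) and 0.09 ± 0.12 on day 14 vs. day 3 (adjusted p = 0.620), none past the threshold. More animals were lower than higher, 12 of 15 on day 3 and 13 of 15 on day 14, and the sign-flip test did not pass in either (adjusted p = 0.173 and 0.154). Animal 11, with the lowest day 0 value, had the largest increase on both days. With the block and the RNA integrity number in the same fit, the day 3 difference was −0.31 and passed (adjusted p = 0.0430).

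TNFRSF10A encodes a TRAIL receptor with a death domain. Its scaled FPKM had a lowest, median and highest value of 13.8, 17.9 and 31.6 on day 0, 12.4, 15.1 and 18.2 on day 3, and 9.61, 12.9 and 14.8 on day 14. Days 0 and 14 were nearly apart: 12 of 15 day 14 libraries lay below every day 0 library, and 14 of 15 day 0 libraries lay above every day 14 library. TNFRSF10A was 0.657-fold of its day 0 level on day 14, a log2 fold change of −0.61 ± 0.10 (SE, adjusted p = 6.08e-06, limma), and it was lower in 15 of 15 animals. The smallest within-animal change was −0.19, in animal 13, which had the lowest value on day 0, and the largest was −1.29, in animal 2. On day 3 vs. day 0 the log2 fold change was −0.34 ± 0.10 (adjusted p = 0.0156, 12 of 15 animals lower), and this call was lost without animal 2 (−0.29, adjusted p = 0.0536) and on FPKM as deposited (−0.38, adjusted p = 0.0716). From day 3 to day 14 it was −0.27 ± 0.10 (adjusted p = 0.0502, 13 of 15 animals lower), and the block gave an adjusted p of 0.0363 and the sign-flip test 0.00839. In limma that comparison also passed without animal 6 (adjusted p = 0.0398), animal 7 (0.0328), animal 10 (0.0490), animal 11 (0.0468) or animal 15 (0.0486). The highest adjusted p with 1 animal left out was 0.106. The comparison did not pass with RNA integrity in the fit (−0.23, adjusted p = 0.124) or with RNA integrity and the block (−0.26, adjusted p = 0.0951). TNFRSF10A has close paralogs, and counting that splits or drops shared reads would make its level uncertain.

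**Figure D2:**
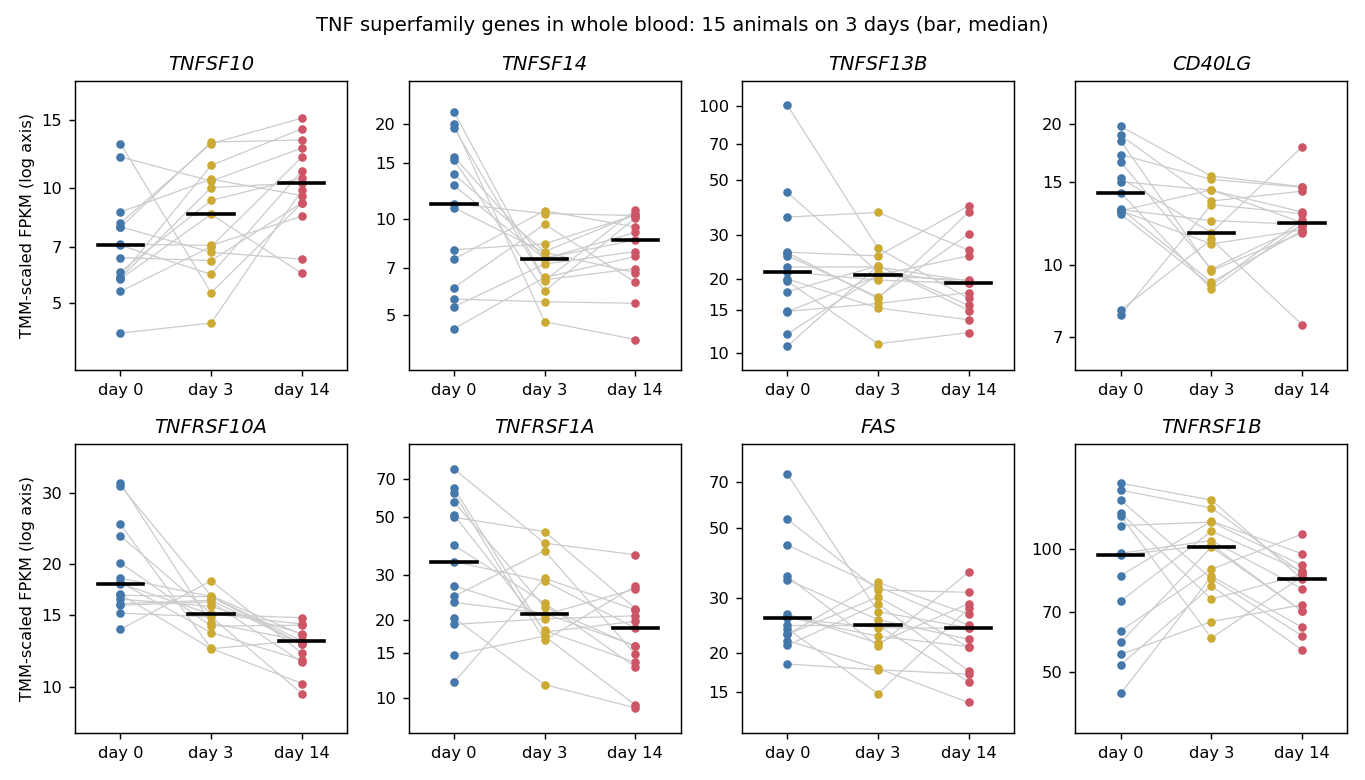
Scaled FPKM (y axes, logarithmic) of the 8 genes on days 0, 3 and 14 (x axes), with 1 point per library, grey lines joining the libraries of 1 animal and black bars at the median of 15. TNFRSF10A falls from a median of 17.9 to 12.9 between days 0 and 14, TNFSF10 goes from 7.07 to 10.3, and the single high TNFSF13B point on day 0 is animal 11.

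The other TRAIL receptors in the tables differed in level and in course. TNFRSF10C and TNFRSF10D, decoys without a working death domain, were both called down on both later days vs. day 0. TNFRSF10C, at 249 ± 207, 90.1 ± 40.8 and 78.5 ± 46.1 scaled FPKM (SD, n = 15 each) in day order, had a log2 fold change of −1.16 ± 0.35 (SE) on day 3 (adjusted p = 0.0242) and −1.45 ± 0.35 on day 14 (adjusted p = 0.00111). TNFRSF10D, at 26.1 ± 19.2, 11.03 ± 5.14 and 8.29 ± 3.53 scaled FPKM, had −1.04 ± 0.31 (adjusted p = 0.0202) and −1.44 ± 0.31 (adjusted p = 2.59e-04), and both decoys were lower in 14 of 15 animals on day 14. After adjustment for RNA integrity their day 3 differences of −1.02 and −0.92 no longer passed (adjusted p = 0.0721 and 0.0625). The median log2 fold change of the 14 neutrophil markers was −1.05 on day 3 and −1.38 on day 14 vs. day 0, about the size of the decoys' changes, and the part of these cells in them was not tested. TNFRSF10B, which has a death domain like TNFRSF10A, was much lower at 2.12 ± 0.52, 2.53 ± 0.63 and 2.06 ± 0.61 scaled FPKM and was not called (adjusted p = 0.269 on day 3 and 0.806 on day 14 vs. day 0). The ligand and TNFRSF10A moved apart within libraries: the ratio of TNFSF10 to TNFRSF10A had a lowest, median and highest value of 0.172, 0.391 and 0.669 on day 0, 0.271, 0.512 and 0.867 on day 3, and 0.449, 0.856 and 1.48 on day 14. The ratio was higher on day 14 than on day 0 in 15 of 15 animals, by 1.12 ± 0.53 log2 units (SD), and above 1 in 4 libraries of day 14 and 0 of the earlier days. A ratio within a library does not depend on the scaling between libraries, apart from the pseudocount. The ratio of TNFRSF10C to TNFRSF10A went the other way, from a median of 10.7 on day 0 to 5.56 on day 3 and 5.47 on day 14, and was lower on day 14 than on day 0 in 12 of 15 animals.

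**Figure D3:**
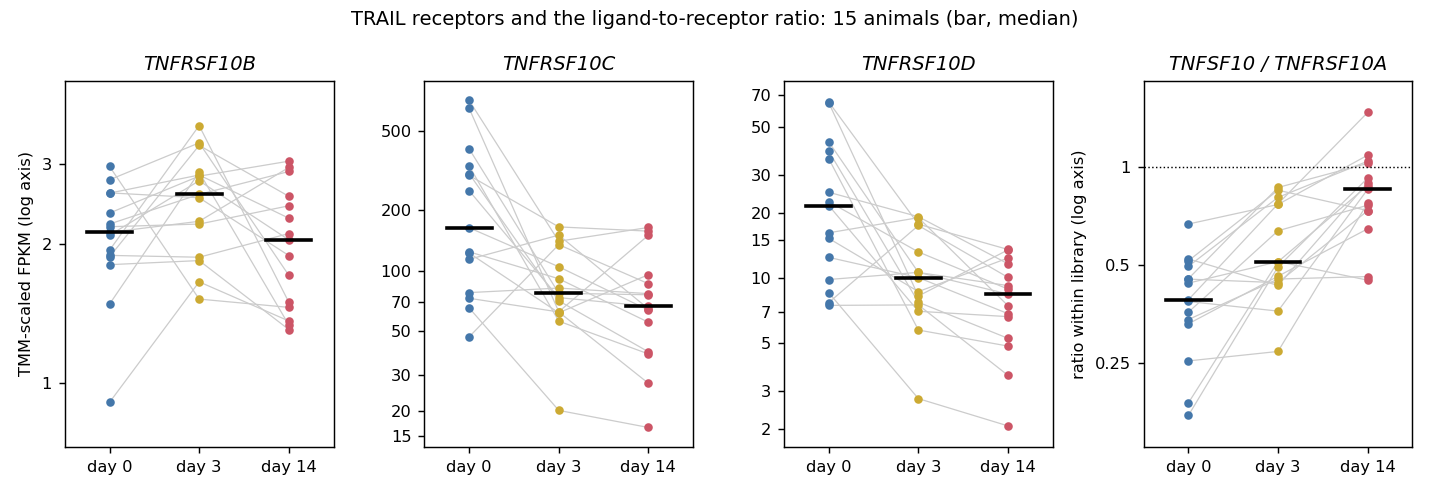
Scaled FPKM (y axes, logarithmic) of TNFRSF10B, TNFRSF10C and TNFRSF10D and, at the right, the ratio of TNFSF10 to TNFRSF10A within each library (logarithmic, dotted line at 1) on days 0, 3 and 14. Grey lines join the libraries of 1 animal and black bars are medians of 15, and the ratio median goes from 0.391 to 0.856 between days 0 and 14.

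TNFRSF1A encodes the TNF receptor that carries a death domain and is found on most cells. Its scaled FPKM had a lowest, median and highest value of 11.5, 33.7 and 76.8 on day 0, 11.3, 21.2 and 44.0 on day 3, and 9.19, 18.7 and 35.8 on day 14. On day 0 the libraries reached far above the later ones, with 7 of 15 higher than every day 14 library, but the lower part of the ranges overlapped. TNFRSF1A was on day 14 at 0.539-fold of its day 0 level, a log2 fold change of −0.89 ± 0.23 (SE, adjusted p = 0.00239, limma), and lower in 13 of 15 animals. Animals 5 and 6 were higher: animal 5, with the lowest value on day 0, went from 11.5 to 21.95 scaled FPKM, and animal 6 from 19.3 to 20.8. On day 3 vs. day 0 the log2 difference was −0.52 ± 0.23 (adjusted p = 0.141, 11 of 15 animals lower), which among the alternatives run passed with the animal as a block alone (adjusted p = 0.0491), and on day 14 vs. day 3 it was −0.37 ± 0.23 (adjusted p = 0.273, 11 of 15 animals lower). Neutrophil markers stood beside it: their summed scaled FPKM ranged from 432 to 5009 on day 0 (median 714), from 195 to 1066 on day 3 (median 570) and from 171 to 872 on day 14 (median 433), and the sum was lower on day 14 than on day 0 in 13 of 15 animals. Their part in the falls of TNFRSF1A and TNFRSF10A was not tested.

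TNFRSF1B, the TNF receptor without a death domain, is enriched on leukocytes and was the most abundant of the 8 genes. Its scaled FPKM had a lowest, median and highest value of 44.3, 96.9 and 145 on day 0, 60.6, 101 and 132 on day 3, and 56.6, 84.6 and 109 on day 14. The day 0 libraries extended beyond the later ones at both ends. The log2 difference was 0.12 ± 0.15 on day 3 vs. day 0 (adjusted p = 0.683), −0.14 ± 0.15 on day 14 vs. day 0 (adjusted p = 0.491) and −0.26 ± 0.15 on day 14 vs. day 3 (adjusted p = 0.233, 11 of 15 animals lower), none past the threshold. Leaving out 1 animal moved the day 3 difference between 0.056 (without animal 5) and 0.20 (without animal 7), and that of day 14 vs. day 0 between −0.21 (without animal 6) and −0.071 (without animal 4). Within libraries the balance of both TNF receptors shifted: the ratio of TNFRSF1A to TNFRSF1B had medians of 0.371, 0.227 and 0.228 in day order and was lower than on day 0 in 13 of 15 animals on day 3 and in 14 of 15 on day 14.

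FAS encodes the death receptor for Fas ligand, through which activated lymphocytes are removed. For FAS the scaled FPKM had a lowest, median and highest value of 18.4, 25.8 and 74.2 on day 0, 14.8, 24.4 and 33.5 on day 3, and 13.9, 23.9 and 36.1 on day 14. The medians were close, and the days differed at both ends. At the top, 5 day 0 libraries exceeded every day 3 library and 3 exceeded every day 14 library. At the bottom, 3 day 3 libraries and 4 day 14 libraries lay below every day 0 library. The log2 difference on day 14 vs. day 0 was −0.36 ± 0.16 (adjusted p = 0.0667, 11 of 15 animals lower), and it passed with the animal as a block (adjusted p = 0.0205), in the sign-flip test (adjusted p = 0.0266) and in limma without animal 13 (adjusted p = 0.0465). The day 14 difference did not pass with RNA integrity in the fit (−0.32, adjusted p = 0.231) or with RNA integrity and the block (−0.38, adjusted p = 0.103). With 1 animal left out its adjusted p reached 0.152. On day 3 vs. day 0 the log2 difference of FAS was −0.27 ± 0.16 (adjusted p = 0.284) and on day 14 vs. day 3 −0.09 ± 0.16 (adjusted p = 0.725). The ligand gene FASLG, expressed by cytotoxic lymphocytes, was called up in both comparisons with day 0: its scaled FPKM was 5.83 ± 3.14 (SD, n = 15) on day 0, 9.67 ± 4.15 on day 3 (log2 fold change 0.80 ± 0.24, SE, adjusted p = 0.0237) and 12.1 ± 5.39 on day 14 (1.11 ± 0.24, adjusted p = 3.18e-04). The day 3 call of FASLG was lost after adjustment for RNA integrity (0.69, adjusted p = 0.0744) and on FPKM as deposited (0.76, adjusted p = 0.0923). NK cell markers stood beside FASLG too, their sum being higher by 0.69 ± 0.77 log2 units (SD) on day 3, in 13 of 15 animals, and by 1.31 ± 0.74 on day 14, in 14 of 15. Their part in the FASLG calls and in its ratio to FAS was not tested. This ratio had medians of 0.214, 0.363 and 0.462 in day order and was higher on day 14 than on day 0 in 14 of 15 animals.

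The order of the 8 genes by mean scaled FPKM, which is per length and so can be set side by side between genes, shifted below the first place. TNFRSF1B led on each day and exceeded the next gene in all 15 libraries of each day, with means of 93.6, 97.0 and 80.5. On day 0 it was followed by TNFRSF1A (38.4), FAS (31.6), TNFSF13B (27.3), TNFRSF10A (19.8), CD40LG (14.4), TNFSF14 (11.9) and TNFSF10 (7.42). Below TNFRSF1B no neighbours in that order differed by more than the SD of their log2 difference over libraries: TNFRSF1A exceeded FAS in 9 of 15 libraries, FAS exceeded TNFSF13B in 13, TNFSF13B exceeded TNFRSF10A in 9, TNFRSF10A exceeded CD40LG in 12, CD40LG exceeded TNFSF14 in 9 and TNFSF14 exceeded TNFSF10 in 10. On day 14 the order was FAS (23.4), TNFSF13B (21.8), TNFRSF1A (19.0), CD40LG (12.8), TNFRSF10A (12.6), TNFSF10 (10.52) and TNFSF14 (8.27) after TNFRSF1B. The same held for day 14: FAS exceeded TNFSF13B in 9 of 15 libraries, TNFSF13B exceeded TNFRSF1A in 9, TNFRSF1A exceeded CD40LG in 12, CD40LG exceeded TNFRSF10A in 8, TNFRSF10A exceeded TNFSF10 in 11 and TNFSF10 exceeded TNFSF14 in 12.

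For most of the 8 genes the animals differed most from each other on day 0. The SD of the log2 level over 15 animals was lower on day 3 than on day 0 for 7 of the 8 genes, TNFSF10 being the exception, and lower on day 14 for all 8. Over all tested genes 56.2% had a lower SD on day 3 and 58.3% on day 14. For TNFRSF10A the SD was 0.36, 0.16 and 0.17 in day order, and for TNFSF14 it was 0.75, 0.33 and 0.39. TNFSF10 went from 0.42 to 0.47 and 0.38, and the median gene from 0.43 to 0.41 and 0.40.

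Across the 45 libraries, 5 of the 8 genes had their highest positive r with the neutrophil marker sum and the other genes with different sums. These correlations of log2 values are descriptions over points that share animals, days and the scaling of each library. With the neutrophil marker sum, Pearson's r was 0.92 for TNFRSF1A, 0.72 for FAS, 0.70 for TNFRSF10A, 0.70 for TNFSF14 and 0.59 for TNFRSF1B, and with each day's mean removed these were 0.90, 0.68, 0.55, 0.65 and 0.69. With the T cell sum, r was −0.67 for TNFRSF1A, −0.64 for TNFRSF1B, −0.50 for TNFSF13B, −0.49 for FAS, −0.37 for TNFSF14 and −0.19 for TNFRSF10A. TNFRSF10A also had an r of −0.60 with the NK cell sum. TNFSF13B had its highest r with the monocyte sum (0.75), CD40LG with the T cell sum (0.74, where CD28 is also a marker) and TNFSF10 with the NK cell sum (0.57, and 0.40 with each day's mean removed). Spearman's rank correlation for these 3 pairs was 0.61, 0.68 and 0.58. With the neutrophil sum it was 0.89 for TNFRSF1A, 0.64 for FAS, 0.52 for TNFRSF10A, 0.52 for TNFSF14 and 0.53 for TNFRSF1B. Beside CD40LG, the T cell sum had medians of 854, 786 and 837 scaled FPKM and ranges of 460 to 1097, 534 to 923 and 615 to 1072 on days 0, 3 and 14, and of its 14 markers 0 were called on day 3 and 3 on day 14 vs. day 0 (2 up, 1 down) by limma. At an unadjusted p under 0.05 there were 4 and 5, by the sign-flip test 1 and 5, and with RNA integrity in the fit 0 and 0. Single markers carried much of some sums: LYZ made up 72.4% of the mean monocyte sum and GZMB 63.4% of the mean NK cell sum. Without the most abundant marker of each sum, a description added after the data were seen, r was 0.62 for TNFSF13B with the monocyte markers, 0.66 for CD40LG with the T cell markers (without IL7R) and 0.47 for TNFSF10 with the NK cell markers, while TNFRSF1B had 0.66 with the monocyte markers, above its 0.59 with the neutrophil sum. The monocyte sum had medians of 1596, 1664 and 1599 and ranges of 836 to 7856, 849 to 2749 and 900 to 2496, with 3 of 10 markers called up on day 3 and 4 called down on day 14 vs. day 0 (1 and 1 with RNA integrity in the fit). Without LYZ its medians were 446, 500.1 and 361 in day order. On day 14 vs. day 0 the log2 differences of the 10 markers ran from −0.80 to 0.20, with a median of −0.22. Among them LYZ was at 0.02, CD14 at −0.80 and VCAN at −0.74. The B cell sum ranged from 85.2 to 602, 204 to 576 and 165 to 402, with 2 of 10 markers called down for day 14 vs. day 0, and 4 of 10 for day 14 vs. day 3. Erythroid sums ranged from 391 to 21032 on day 0 and from 6538 to 60933 on day 14, and platelet sums from 245 to 4427 and from 422 to 3456.

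**Figure D4:**
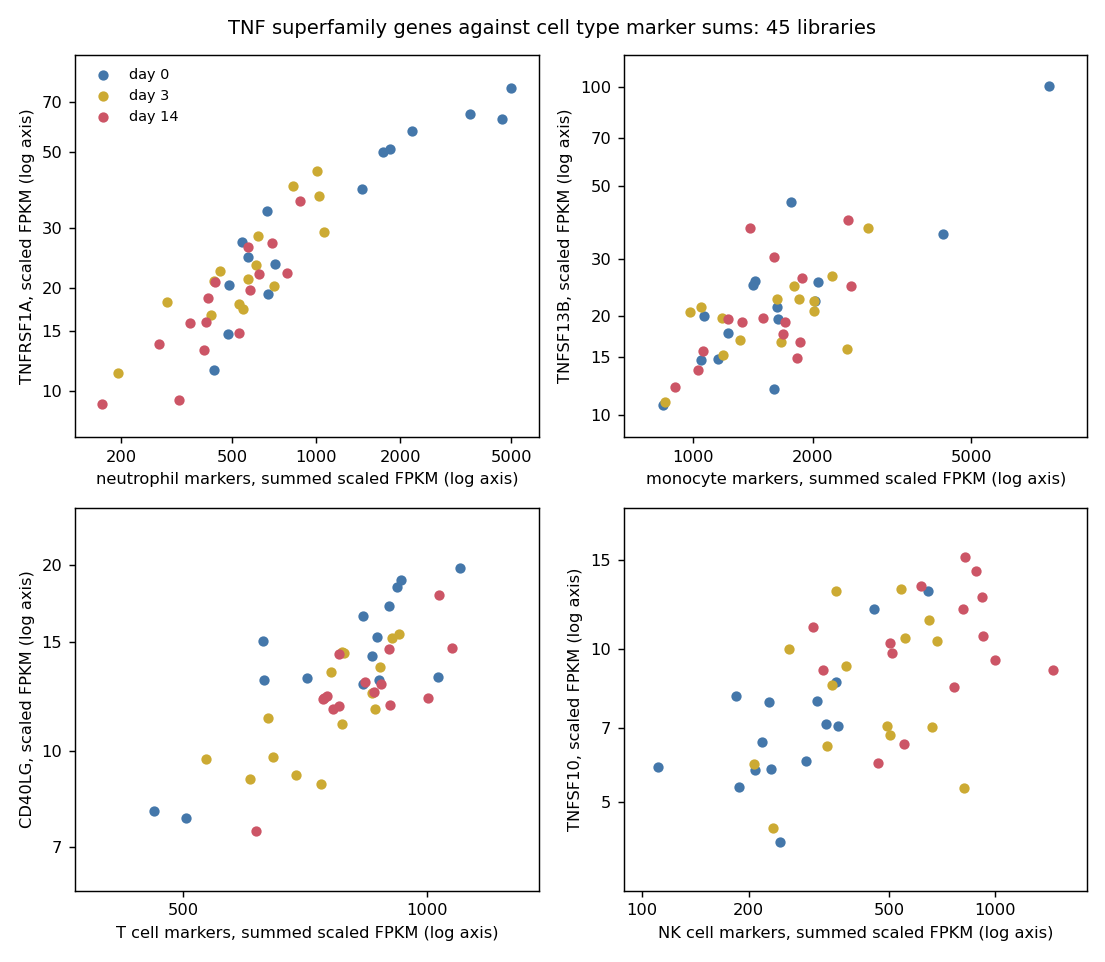
Scaled FPKM of TNFRSF1A, TNFSF13B, CD40LG and TNFSF10 (y axes) against the summed scaled FPKM of neutrophil, monocyte, T cell and NK cell markers (x axes), all axes logarithmic, with 1 point for each of 45 libraries colored by day. TNFRSF1A lies along the neutrophil sum (r = 0.92), and the TNFSF10 points scatter more widely around the NK cell sum (r = 0.57).

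The genes whose log2 levels followed each of the 8 most closely over the 45 libraries, by Pearson's r over all tested genes with a symbol, were as follows. For TNFRSF1A they were MEFV (0.955), NLRP12 (0.955) and CSF3R (0.953), the last being the receptor for granulocyte colony-stimulating factor and one of the neutrophil markers. For TNFRSF1B they were SIGLEC11 (0.889), FES (0.849) and MYO1F (0.842). For FAS they were TRIM22 (0.880), IRF1 (0.872) and ZNF267 (0.872), and for TNFSF13B FGL2 (0.861), IFIH1 (0.840) and LACTB (0.813). TRIM22, IRF1 and IFIH1 are known as interferon-inducible genes. For CD40LG they included CD28 (0.848), the costimulatory receptor of T cells, and PPAT (0.793). For TNFRSF10A they were AGPAT9 (0.853), RASSF3 (0.829) and IPCEF1 (0.818), and for TNFSF14 GADD45B (0.834), FUT7 (0.784) and PPM1D (0.775). TNFSF10 had the weakest likeness, with KLRG1 (0.696), a receptor of NK and memory T cells, TARS (0.676) and PLA2G16 (0.671). Among the TNF superfamily genes themselves, TNFRSF1A had an r of 0.95 with each of the decoys TNFRSF10C and TNFRSF10D, and 0.73 with FAS and with TNFRSF1B.

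Beyond the 8 genes, 36 of 37 other listed family genes had a row and 34 were tested. TNFSF9 and TNFRSF11B were at or near 0, with highest values of 0.307 and 0.0776 scaled FPKM, and were left out by the filter. Of the 34, 5 were called on day 3 vs. day 0 (2 up, 3 down), 10 on day 14 vs. day 0 (4 up, 6 down) and 2 on day 14 vs. day 3 (1 up, 1 down). Over all tested genes the shares called were 12.1%, 36.1% and 14.4%, so the 34 were near them on day 3 and below them in the other comparisons. With the block the counts were 7, 15 and 6, beside 19.0%, 44.1% and 25.4% of all tested genes. The median log2 fold change of the 34 was 0.03, −0.10 and −0.09. Beside FASLG and the decoys, TNFSF8, the CD30 ligand, was called down on day 3 (−0.50 ± 0.10, adjusted p = 0.00133) and on day 14 (−0.57 ± 0.10, adjusted p = 2.18e-05, lower in 15 of 15 animals), and EDAR, the ectodysplasin receptor, was called down on day 14 (−0.42 ± 0.13, adjusted p = 0.0105), a call lost after adjustment for RNA integrity (−0.28, adjusted p = 0.188). Of the receptors for TNFSF13B, 1 was called up, 1 was called down and TNFRSF13B (TACI) was not called. TNFRSF17, the receptor of plasma cells, was called up on day 14, from 1.73 ± 0.99 to 6.17 ± 3.51 scaled FPKM (SD), a log2 fold change of 1.72 ± 0.28 (SE, adjusted p = 1.20e-05) vs. day 0 and of 1.22 ± 0.28 (adjusted p = 0.00651) vs. day 3. TNFRSF13C, the receptor of mature B cells, was called down on day 14 vs. day 3 (−1.18 ± 0.31, adjusted p = 0.0133) and was lower in 15 of 15 animals, while its differences from day 0 were 0.53 on day 3 (adjusted p = 0.281) and −0.64 on day 14 (adjusted p = 0.101), not called. The latter passed with the animal as a block (adjusted p = 0.0347, 12 of 15 animals lower) but not in the sign-flip test (adjusted p = 0.0596). The B cell marker sum was lower from day 3 to day 14 in 14 of 15 animals, by 0.43 ± 0.39 log2 units (SD), and its part in the day 14 vs. day 3 call of TNFRSF13C was not tested. TNFRSF13B, at a mean of 0.541 scaled FPKM, had log2 differences of 0.040 (adjusted p = 0.943) on day 3 vs. day 0, −0.050 (adjusted p = 0.884) on day 14 vs. day 0 and −0.090 (adjusted p = 0.820) on day 14 vs. day 3, each ± 0.22 (SE).

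**Figure D5:**
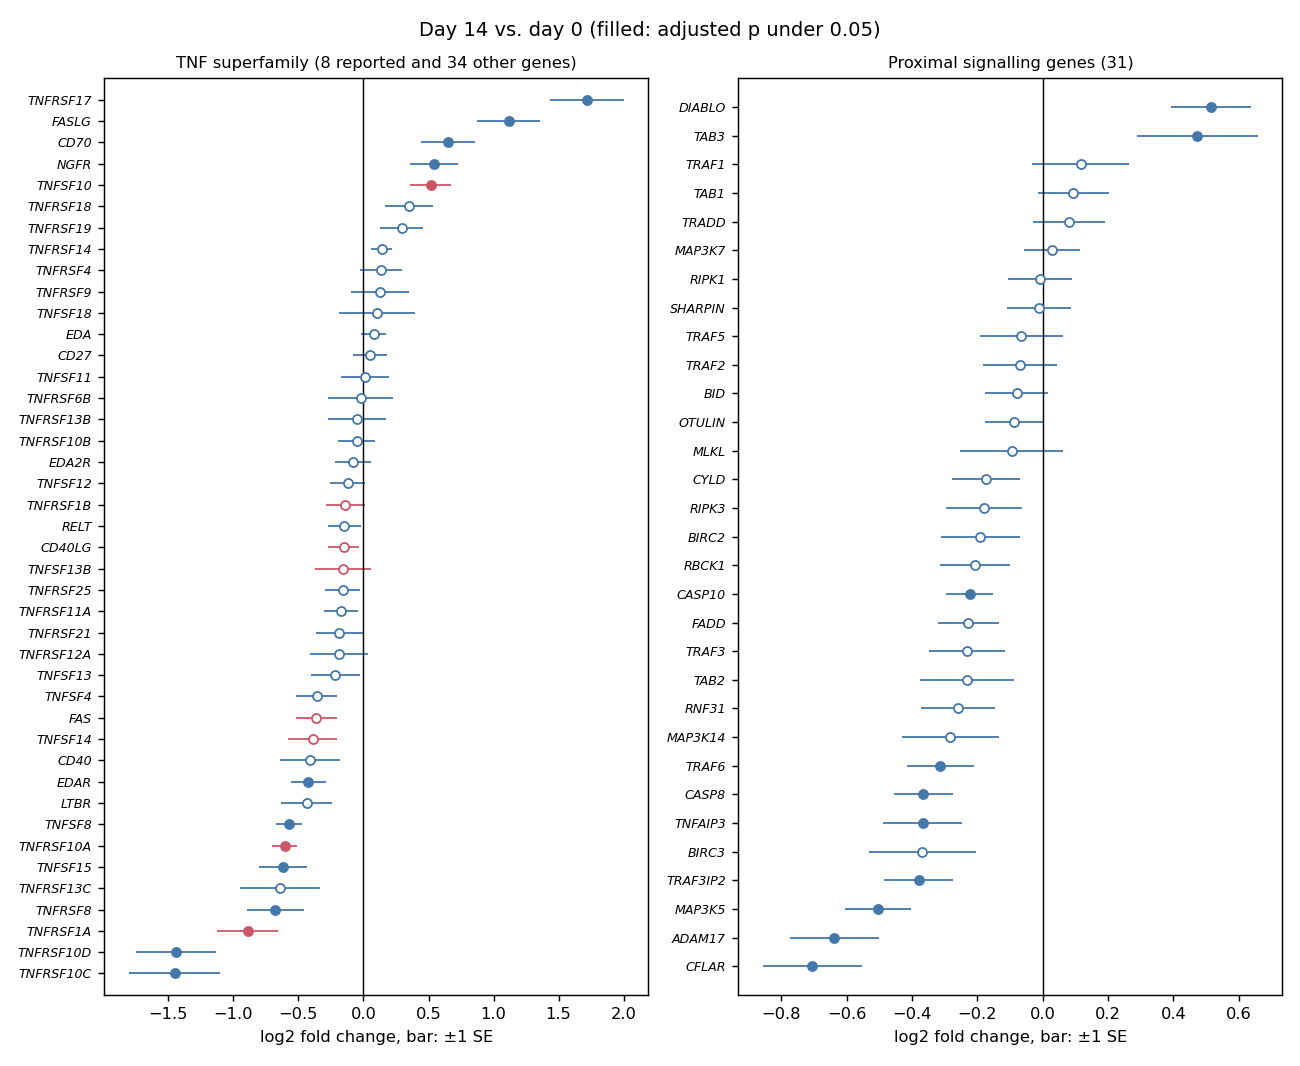
Log2 fold changes on day 14 vs. day 0 (x axes) of the 42 tested TNF superfamily genes (left, the 8 genes in red) and of 31 proximal signalling genes (right), ordered by size. Bars are ±1 SE and filled points have an adjusted p under 0.05, with TNFRSF17 (1.72) at the top and TNFRSF10C (−1.45) at the bottom of the family.

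Of 32 genes that act next to these receptors inside the cell, 31 were tested, and 5 were called on day 3 vs. day 0 (1 up, 4 down), 10 on day 14 vs. day 0 (2 up, 8 down) and 4 on day 14 vs. day 3 (1 up, 3 down). These shares were close to the 12.1%, 36.1% and 14.4% of all tested genes. Their median log2 fold change was −0.04, −0.19 and −0.15. The largest falls on day 14 vs. day 0 were those of CFLAR, the inhibitor of caspase-8 activation (−0.70 ± 0.15, adjusted p = 2.99e-04), ADAM17, the protease that sheds TNF and its receptors (−0.64 ± 0.14, adjusted p = 2.96e-04), the apoptosis signalling kinase MAP3K5 (−0.50 ± 0.10, adjusted p = 1.39e-04) and TRAF3IP2, an adaptor that binds TRAF proteins (−0.38 ± 0.11, adjusted p = 0.00463). DIABLO, which antagonizes inhibitor of apoptosis proteins (0.52 ± 0.12, adjusted p = 9.13e-04), and TAB3 (0.47 ± 0.18, adjusted p = 0.0402) were called up, and on FPKM as deposited neither passed (0.12, adjusted p = 0.435, and 0.09, adjusted p = 0.592). On day 3 CASP8, the initiator caspase of death receptors (−0.44 ± 0.09, adjusted p = 0.00160), CFLAR (−0.47), BIRC2 (−0.41) and MAP3K5 (−0.32) were called down, and TAB1 (0.32) was called up. Between day 3 and day 14 MAP3K14 (−0.45), TRAF3 (−0.33) and TRAF3IP2 (−0.32) were called down and DIABLO (0.45) up. Among these signalling genes the calls of BIRC2 and CASP8 on day 3 held after adjustment for RNA integrity. Those of CASP8, CFLAR, ADAM17, MAP3K5 and TAB3 on day 14 vs. day 0 also held. The other named calls did not hold (adjusted p from 0.0527 to 0.0893). CFLAR on day 3 was also lost in the sign-flip test (adjusted p = 0.0881), and TAB1 on FPKM as deposited (0.28, adjusted p = 0.490), as was DIABLO from day 3 to day 14 (0.10, adjusted p = 0.558).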

How the data were processed

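Whole-blood RNA was sequenced as stranded libraries depleted of ribosomal and globin RNA. The authors called bases with bcl2fastq 2.17, aligned the reads with STAR to the Chlorocebus_sabeus 1.1 genome and counted fragments with HTSeq, with other versions not given in the sources used here. The deposited values are FPKM, 1 table per library, made by the authors from fragment counts, gene length and the library's total on genes without scaling between libraries. Each value above 0 was a whole number of fragments within 0.02 (100% of values), so that counts and CPM could be recovered for the filter and for depth, which was 13216280 to 31469337 fragments per library.

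Genes with a CPM over 0.5 in at least 3 libraries were tested (18753 of 33994). FPKM were scaled by TMM (trimming 30% of log ratios and 5% of mean levels), 0.1 was added, and log2 values were fitted with limma 3.58.1 in R 4.3.3, with 1 mean per day over all 45 libraries. The pseudocount slightly understates changes of low genes. Alternatives were no TMM, a pseudocount of 0.01 or 1, no filter, the animal as a replicate block, the RNA integrity number listed by the study as a covariate, both together, an exact sign-flip test, and each animal left out. The labels pair the libraries by animal. Deviations from the day means had a mean r of 0.33 within animals (lowest −0.04) and −0.04 between animals. Groups came from the labels' days after exposure, which give 14 for the last time point where the series text gives 15 days. Libraries of a day differed by far more than counting noise, and none was counted as a duplicate. The steps were tested on simulated data.

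The genes and lists were chosen with earlier results of these data known. All listed genes were named, then up to 4 genes per list, comparison and direction with the largest change among those called with a mean of at least 1 FPKM, and the 3 genes most alike by r, of which 1 is not reported here. TNFRSF10B, TNFRSF13B, TNFRSF14, LTBR and CD40 were added as receptors of listed ligands after their values were seen. The day 14 value of CASP8 was also added then. TRAT1 and CYP4F3 were among the markers matched to their rows by gene identifier. FCGR3B, XK, PF4, XIAP, LTA, TNF and LTB were not analysed here.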

Additional observations from a re-analysis of the deposited data

How the results depend on the processing

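Of 192 values of the 8 genes under alternatives other than leaving out an animal, 165 kept their direction and side of the threshold, 17 passed it newly, 4 no longer passed and 6 turned direction, and with 1 animal left out the counts were 344, 11, 1 and 4 of 360. No turned value had been called. The turns on day 14 vs. day 3 without TMM were TNFSF10 (−0.039), TNFSF14 (−0.22), TNFSF13B (−0.33) and CD40LG (−0.26), which follow from the scaling, since the median gene moved by about as much. TNFSF13B in that comparison was −0.055 with the RNA integrity number, −0.034 with it and the block, and between −0.059 and 0.071 with an animal left out, turning without animal 1, 7 or 13. On day 14 vs. day 0 it was between −0.24 and 0.017, turning without animal 11.

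Called genes among the 8 numbered 1, 3 and 0 in the order day 3 vs. day 0, day 14 vs. day 0 and day 14 vs. day 3. Without TMM there were 0, 7 and 4. With the replicate block there were 3, 4 and 1, with the block and the RNA integrity number 2 on day 3, and with a pseudocount of 1 or the sign-flip test 1 on day 14 vs. day 3. With an animal left out they ranged from 0 (without animal 2) to 2, from 3 to 4, and from 0 to 1.

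Other family genes called numbered 5, 10 and 2. Without TMM there were 19 and 16 in the last 2 comparisons, and on day 14 vs. day 3 the replicate block gave 6 and the sign-flip test 8. The RNA integrity number gave 2 on day 3, and leaving out an animal 2 (without animal 7) to 5, 10 to 11 and 2 to 3. Proximal signalling genes called numbered 5, 10 and 4. Without TMM there were 24 and 20 on day 14 vs. days 0 and 3, without the filter 3 on day 3 and 1 on day 14 vs. day 3, and with the RNA integrity number 2, 6 and 0. On day 14 vs. day 3 the latter with the block gave 1 and the sign-flip test 11, and the ranges without an animal were 1 (without animal 2) to 5, 9 to 11 and 1 to 4 (1 without animal 2, 8, 9, 12 or 14). Beyond the counts and genes given, the replicate block changed no other call of the 8 genes. Except for the effect of TMM, the cause of these moves was not tested. Each value of the 8 genes rested on 96 or more fragments.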
